A study of Mus musculus with 6 samples.

Results

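The miR-19 family of the mouse is made from 3 hairpin genes, Mir19a, Mir19b-1 and Mir19b-2, and here it was followed in exosomes, the small vesicles that cells release into their medium. The members were the rows of the count table whose Ensembl identifier carries one of these names in GENCODE M21. All 3 had a row, out of 1973 rows in the table. The members were chosen by their fold change between exosomes of ceramide-treated and control cells, the lowest in the table, so that difference is described below without a test.

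The exosomes came from HN9.10e, a wild type line of immortalized hippocampal neurons grown in medium with fetal serum. They were collected after 48 h from untreated cells (control, 3 libraries) and from cells given 100 nM ceramide, a sphingolipid (Cer, 3 libraries), and their small RNA was sequenced. Total counts were 800810 to 2760015 per library, the lowest in Cer replicate 1. All libraries come from 1 cell line and were made from an equal mass of exosomal RNA, so the counts are shares of that RNA and not amounts per vesicle. The study's text calls the replicates biological without saying what separated them, so p-values measure the spread between these samples, which may be technical in part. The fixed neuronal miRNAs with a row (10 of 11) all had counts in every library. They summed to 8869 to 10164 CPM (counts scaled by the library total) in control and 6235 to 7106 CPM in Cer. Most of that sum lay on Mir138-1 and Mir138-2, which share a mature sequence. Of the 10 rows, 3 had a log2 fold change above 0 and 7 below. The rows of Mir124a held nearly the same counts, as did Mir9-2 and Mir9-3, so this split counts some miRNAs more than once. Mir128-2 and Mir138-1 were called lower, 2 of the 10, and none was called higher. Over all rows 8.37% were called lower and 11.5% in either direction. Among the neuronal rows, the 3 of Mir124a, a miRNA typical of mature neurons, had only 11 to 39 counts per library each. The blood and serum miRNAs with a row (6 of 9) summed to 393 to 442 CPM in control and 348 to 413 CPM in Cer, with none called. Of these 6 rows, 4 had a log2 fold change above 0 and 2 below, with a median of 0.20. Mir486 (-0.26) held the most counts of them in every library. The part of either list in the results below was not tested.

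A miRNA gene is transcribed as a long primary RNA, from which a hairpin is cut out and then trimmed to a mature strand that guides silencing of messenger RNAs through its seed, bases 2 to 8. miR-19 belongs to the miR-17-92 cluster, an oncogenic polycistron whose hairpins are cut from a common primary RNA and fall into several seed families. In the hippocampus miR-19 has been linked to the migration of newborn neurons.

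Mir19a lies at chr14:115044000-115044081 and Mir19b-1 at chr14:115044305-115044391 on the plus strand of GRCm38, both within an exon of Mir17hg, the noncoding host transcript of the miR-17-92 cluster. Mir19b-2 lies at chrX:52741983-52742066 on the minus strand, in the paralogous miR-106a-363 cluster, outside any other annotated gene. The RefSeq hairpins (GRCm38.p6) are shown because a row counts everything that falls on a hairpin. They are 82, 87 and 84 bases long, and the capitals mark the 3p mature sequence.
Mir19a: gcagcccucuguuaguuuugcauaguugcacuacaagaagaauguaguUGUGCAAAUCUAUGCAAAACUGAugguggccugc
Mir19b-1: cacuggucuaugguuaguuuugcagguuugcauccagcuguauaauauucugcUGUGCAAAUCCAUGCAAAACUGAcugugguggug
Mir19b-2: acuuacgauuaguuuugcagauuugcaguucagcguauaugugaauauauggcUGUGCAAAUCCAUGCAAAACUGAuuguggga

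The mature sequences of the family in RefSeq are given next with the seed in capitals. miR-19a-3p lies at chr14:115044048-115044070 (plus strand), and miR-19b-3p at chr14:115044358-115044380 (plus strand) and chrX:52741991-52742013 (minus strand) of GRCm38.p6. The 3p strands are the usual guides, and the table held no 5p entry for Mir19a.
miR-19a-3p: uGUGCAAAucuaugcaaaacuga
miR-19b-3p: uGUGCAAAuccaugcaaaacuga
miR-19b-1-5p: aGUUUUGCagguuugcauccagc
miR-19b-2-5p: aGUUUUGCagauuugcaguucagc
Both 3p strands carry the seed GUGCAAA, and no other of the 1674 distinct mature sequences in the table had it. They differ by 1 substitution, U11C, counted from 1 at the 5′ end of miR-19a-3p. The longest run they share is 12 bases, which is shorter than the minimum read length of 15 kept by the authors. Mir19b-1 and Mir19b-2 encode an identical 3p strand, and their hairpins share a run of 25 bases.

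The 3p strands hold the motif UGCAAA at positions 3 and 13, the first copy inside the seed. Only these 2 of the 1674 distinct mature sequences (0.119%) hold it in 2 places. The motif was chosen from these strands, which favours such a result, and repeats of other motifs were not counted. The A+U content was 65.2% for miR-19a-3p and 60.9% for miR-19b-3p, against a median of 47.8% over all distinct mature sequences. None of the 4 mature miR-19 sequences holds GGAG or GGCU, short motifs bound by the RNA-binding proteins hnRNPA2B1 and SYNCRIP and linked to loading of miRNAs into exosomes. The motifs were searched on the mature RNA as written, which has no second strand, and do not overlap with UGCAAA. Among all distinct mature sequences, 14.2% hold GGAG and 13.3% hold GGCU.

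The Mir19a row held 484, 682 and 699 counts in control replicates 1, 2 and 3. It held 188, 458 and 374 counts in Cer replicates 1, 2 and 3, the last 2 of which had the largest libraries. As normalized CPM, which also corrects for composition with TMM factors, Mir19a stood at 483, 485 and 512 in control. In Cer it stood at 244, 173 and 159. The groups did not overlap, and Cer replicate 1 lay highest among the Cer libraries.

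The Mir19b-1 row held 976, 1249 and 1172 counts in control and 349, 822 and 700 in Cer, in the order of the replicates. Its normalized CPM was 974, 888 and 858 in control. In Cer it was 453, 311 and 298. Again every Cer library lay below every control library, and Cer replicate 1 lay highest among the Cer libraries.

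The Mir19b-2 row repeated that of Mir19b-1. It differed by at most 3 counts in any library and was at 975, 886 and 858 CPM in control. It was at 452, 310 and 297 CPM in Cer. These rows hold nearly the same counts, so they were read as 1 measurement of miR-19b, and the chromosome 14 and chromosome X hairpins cannot be told apart here.

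**Figure D1:**
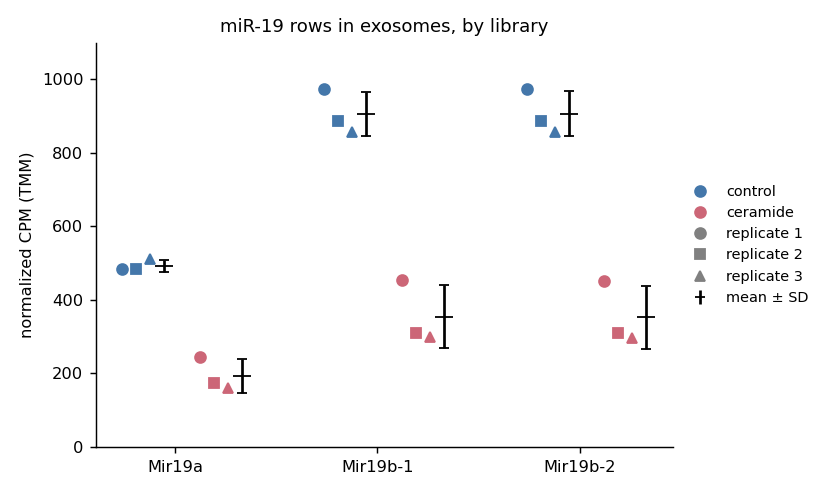
Normalized CPM (linear axis from 0) of the 3 miR-19 rows, with 1 point per library, blue for control and red for Cer, the shape giving the replicate number and black bars the mean ± SD of 3 libraries. In each row the control points sit above the Cer points, and Cer replicate 1 is the highest of the Cer points.

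In exosomes of Cer-treated cells miR-19a was thus 2.59-fold lower and miR-19b (Mir19b-1) 2.58-fold lower than in control. The mean of Mir19a went from 493 ± 15.9 to 192 ± 45.6 CPM, and that of Mir19b-1 from 907 ± 60.3 to 354 ± 86.2 CPM (SD, n = 3 each). On the log2 scale the difference was -1.38 (standard error 0.17) for Mir19a, -1.37 (standard error 0.17) for Mir19b-1 and -1.37 (standard error 0.18) for Mir19b-2, in edgeR's quasi-likelihood fit of all 418 rows that passed the filter on low counts. These were the 3 lowest values of the 418 rows, whose median was -0.01. The next lowest value was -1.28, for Mir500. Fewer vesicles carrying miR-19 and less miR-19 per vesicle cannot be told apart in these libraries.

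A row was called at an adjusted p of at most 0.05 and a log2 fold change of 0.6 or more in size, the thresholds of the study's methods. Over all rows 8.37% were called lower and 11.5% in either direction. The 3 miR-19 rows were among those called lower, which the choice of the members had fixed. Values below 0 were seen in 50.7% of all rows, and groups that did not overlap, with Cer lower, in 25.1%. With the replicate number as a block, 20.8% of all rows were called in place of 11.5%, and 11.7% were called lower.

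**Figure D2:**
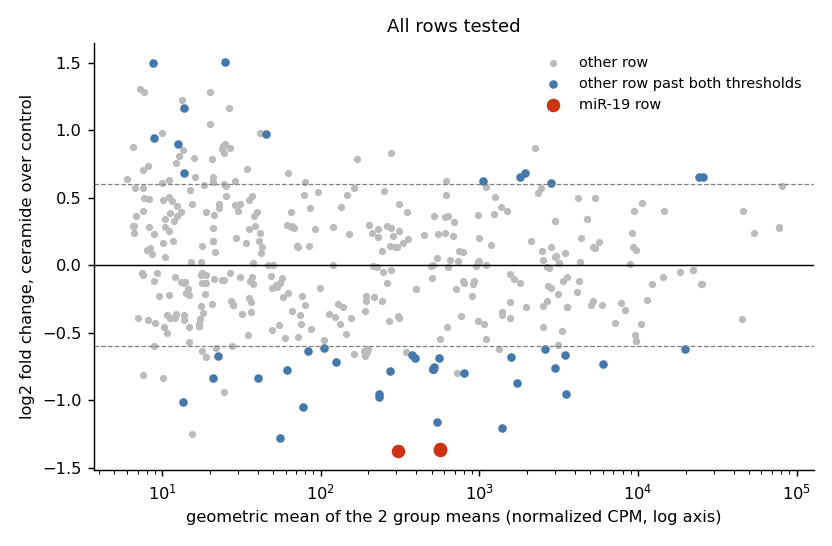
Log2 fold change (Cer over control) of the 418 rows tested against the geometric mean of the group means in normalized CPM (log axis), with blue points past both thresholds, dashed lines at the fold threshold of 0.6 and red points for the miR-19 rows. The miR-19 rows lie at the bottom of the plot, and those of Mir19b overlap in 1 point.

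Among the 418 rows the family stood at a middle level. By mean normalized CPM, Mir19b-1 ranked 112 and Mir19a 148 in control, and 153 and 185 in Cer. Mir19a with Mir19b-1, leaving out the duplicate Mir19b-2, held 0.15%, 0.139% and 0.142% of the counts of control replicates 1, 2 and 3. The shares were 0.0671%, 0.0464% and 0.0457% in the Cer replicates.

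The proportion between miR-19a and miR-19b overlapped between the groups. Per library, Mir19b-1 held 2.02, 1.83 and 1.68 times the counts of Mir19a in control and 1.86, 1.79 and 1.87 times in Cer. The ratio averaged 1.84 ± 0.17 in control and 1.84 ± 0.0407 in Cer (SD, n = 3 each), and the groups overlapped. Mir19a made up 33.2% of the 2 rows' counts in control replicate 1 (95% Wilson interval 30.8 to 35.6%) and 37.4% in control replicate 3 (35.2 to 39.6%), the lowest and the highest library. In Cer it made up 34.8 to 35.8%. Such intervals cover counting error at most and leave out the spread between samples. They may be too narrow even for counting error, since the handling of molecular identifiers is not given in the sources used here. Counts on Mir19b-1 were thus above those on Mir19a in all 6 libraries. They do not rank the miRNAs by amount, since how evenly the sequences are counted was not tested. The Mir19b-1 row may also hold reads of the chromosome X copy.

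The size of the fall differed between the replicate numbers. As differences in log2 CPM between same-numbered libraries, Mir19a was at -0.98, -1.48 and -1.68 for replicates 1, 2 and 3. Mir19b-1 was at -1.10, -1.51 and -1.52. Replicate 1, with the smallest difference in both, is also the one pair with the same lane number in the labels, lane 1. The other control libraries were labelled lane 4 and the other Cer libraries lane 2, so lane and condition cannot be told apart outside replicate 1. The labels do not name the run, and both lane 1 libraries carry the same sample-sheet number, so they may not have shared a run. Without Cer replicate 1 the log2 fold change was -1.59 for Mir19a and for Mir19b-1.

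Hairpins of 1 primary RNA allow a comparison that does not depend on the scaling between libraries. Mir17 and Mir20a lie in the same exon of Mir17hg on either side of Mir19a, Mir17 at chr14:115043671-115043754 and Mir20a at chr14:115044157-115044263 (plus strand, GRCm38). The guide strands of the cluster and its paralogs are shown by seed, since they are the yardstick for miR-19 below. Of the hairpins tested below, Mir92-1 lies at chr14:115044427-115044506 (plus strand), Mir92-2 at chrX:52741838-52741928 (minus strand) and Mir25 at chr5:138165321-138165404 (minus strand).
miR-17-5p: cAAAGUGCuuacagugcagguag
miR-20a-5p: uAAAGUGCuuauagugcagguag
miR-93-5p: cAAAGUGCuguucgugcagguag
miR-18a-5p: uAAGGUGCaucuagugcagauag
miR-92a-3p: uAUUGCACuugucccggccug
miR-25-3p: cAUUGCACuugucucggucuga
miR-363-3p: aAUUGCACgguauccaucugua
The first 3 carry the seed AAAGUGC of the miR-17 family, the fourth the miR-18 seed AAGGUGC, and the last 3 the miR-92 seed AUUGCAC. None carries the miR-19 seed.

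Within each library, Mir17 and Mir20a together held 7.2, 6.2 and 6.4 times the counts of Mir19a and Mir19b-1 in control replicates 1, 2 and 3. They held 21.8, 22.3 and 24.0 times as many in the Cer replicates. The groups were far apart, which the choice of the members favoured. Cer replicate 1, which stood apart in CPM, lay close to the other Cer libraries here. The log2 ratio of miR-19 to Mir17 and Mir20a was -2.72 ± 0.115 in control and -4.50 ± 0.0724 in Cer (SD, n = 3 each), a difference of -1.79. For the direct neighbours Mir19b-1 and Mir20a it was -3.29, -3.07 and -3.14 in control and -4.92, -4.93 and -4.96 in Cer. For Mir19a and Mir17 it was -0.98, -1.03 and -1.28 in control and -2.62, -2.91 and -3.41 in Cer. This difference adds the fall of miR-19, for which the members were chosen, to the higher values of Mir17 and Mir20a in Cer.

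**Figure D3:**
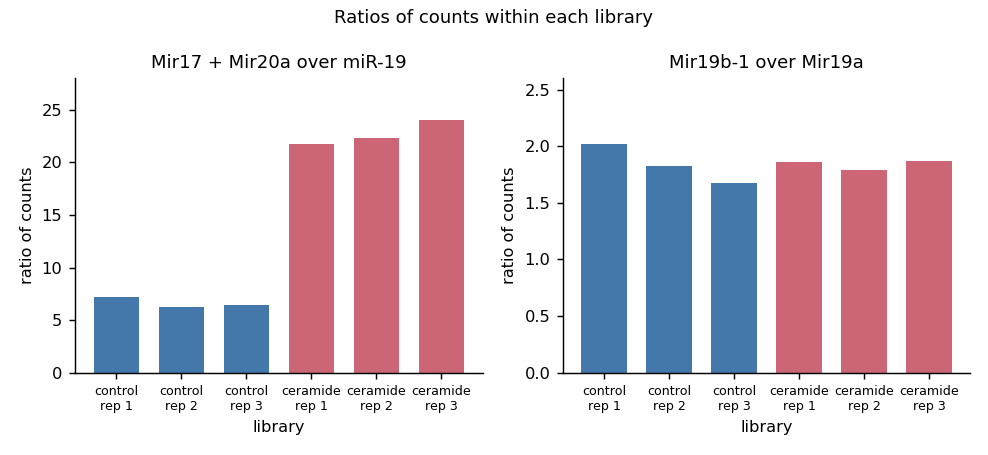
Ratios of counts within each of the 6 libraries (bars from 0, blue for control and red for Cer), on the left Mir17 plus Mir20a over Mir19a plus Mir19b-1 and on the right Mir19b-1 over Mir19a. The left ratio is 6.2 to 7.2 in control and 21.8 to 24.0 in Cer, while the right one lies between 1.68 and 2.02 in all libraries.

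Against Mir92-1, the last hairpin of the cluster, the picture differed between replicates. The log2 ratio of miR-19 to Mir92-1 was -2.84, -3.21 and -3.06 in control and -3.0, -4.24 and -4.36 in Cer, and the groups overlapped through Cer replicate 1. In that library Mir92-1 itself was at 5591 CPM, against 9133 and 9370 in the other Cer libraries and 10462 to 12717 in control. Of all counts on the 6 hairpins of Mir17hg, miR-19 held 5.84 to 6.20% in control and 1.93 to 3.12% in Cer, with the duplicate row left out. The Mir19b-1 row may hold reads of the chromosome X copy as well.

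Outside the members, 12 other hairpins belong to the cluster on chromosome 14 and its paralogs on chromosomes X and 5. Of these, 9 had a log2 fold change above 0 and 3 below, with a median of 0.38, against 206 above 0 and a median of -0.01 over the 418 rows. The groups did not overlap in 4 with Cer higher (Mir17, Mir20b, Mir106a and Mir93) and in 3 with Cer lower. Over the 418 rows this held for 59 with Cer higher and 105 with Cer lower. With edgeR's quasi-likelihood fit, Benjamini-Hochberg adjusted over all 418 rows, 2 of the 12 were called lower and none higher, beside 11.5% called over all rows. Those called lower were Mir92-2 and Mir25, both with the miR-92 seed. Mir25, within the replication gene Mcm7, stood at 25036, 25091 and 23607 CPM in control and at 16612, 16360 and 14932 CPM in Cer. The groups did not overlap, and the log2 difference was -0.62 with a standard error of 0.07 (edgeR, adjusted p = 0.0026). Its call was lost under 6 of the 15 alternatives, among them leaving out control replicate 2 (-0.59) and Cer replicate 3 (-0.57). Mir92-2, the neighbour of Mir19b-2 on chromosome X, stood at 478, 537 and 492 CPM in control and at 231, 337 and 363 CPM in Cer. Here Cer replicate 1 was the lowest of all libraries, and the log2 difference was -0.69 with a standard error of 0.17 (edgeR, adjusted p = 0.038). Its call was lost under 8 of the 15, with values of -0.72, -0.61, -0.70, -0.54 and -0.76 when control replicates 1, 2 and 3 or Cer replicates 1 and 2 were left out. Mir92-1, the chromosome 14 copy, had a log2 difference of -0.52 with a standard error of 0.20 and was not called (edgeR, adjusted p = 0.109). It was -0.34 without Cer replicate 1, and with sequencing lane as a term it was called (-0.90) while Mir25 was not (-0.59) and Mir92-2 was at -1.05.

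The 6 rows with the miR-17 seed and the 2 with the miR-18 seed had log2 fold changes from 0.18 to 0.55, and none was called. Mir17 stood at 954, 988 and 1240 CPM in control and at 1502, 1305 and 1696 CPM in Cer, with no overlap and a log2 difference of 0.50 (edgeR, standard error 0.14, adjusted p = 0.0525). Mir20b stood at 225, 204 and 195 CPM in control and at 369, 289 and 256 CPM in Cer, also with no overlap. Its log2 difference of 0.55 passed the p threshold but not that for size (edgeR, standard error 0.16, adjusted p = 0.0496). Mir20a stood at 9523, 7464 and 7574 CPM in control and at 13696, 9523 and 9275 CPM in Cer, and the groups overlapped (edgeR, log2 difference 0.40, standard error 0.18, adjusted p = 0.146). Without Cer replicate 1, the library where it was highest, its log2 difference was 0.18. Mir93, in the Mcm7 cluster and the most abundant of these rows, had 0.24 with a standard error of 0.07 (edgeR, adjusted p = 0.0532). With the replicate block, Mir17, Mir20a, Mir20b and Mir93 passed the p threshold but not that for size (edgeR, adjusted p 0.00315 to 0.00618). Without control replicate 3 Mir17 was called (0.63), and without Cer replicate 3 so were Mir20b (0.66) and Mir106a (0.68). Mir20b was also called with DESeq2's size factors (0.62) and upper-quartile factors (0.61) in edgeR. Mir18 had 0.40 (standard error 0.46) and turned to -0.23 without Cer replicate 3, where its CPM was 2923 against 874 and 1333 in the other Cer libraries. In the order along Mir17hg, the hairpins Mir17, Mir18, Mir19a, Mir20a, Mir19b-1 and Mir92-1 had log2 fold changes of 0.50, 0.40, -1.38, 0.40, -1.37 and -0.52. The value of Mir19b-1 cannot be given to this transcript alone, since the row could not be told from that of Mir19b-2, while Mir19a has its own mature sequence and lies between Mir18 and Mir20a. Directions relative to 0 were the same under TMM, DESeq2's size factors, upper-quartile factors and library size alone. With sequencing lane as a term Mir18, Mir106b and Mir363 had values below 0.

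**Figure D4:**
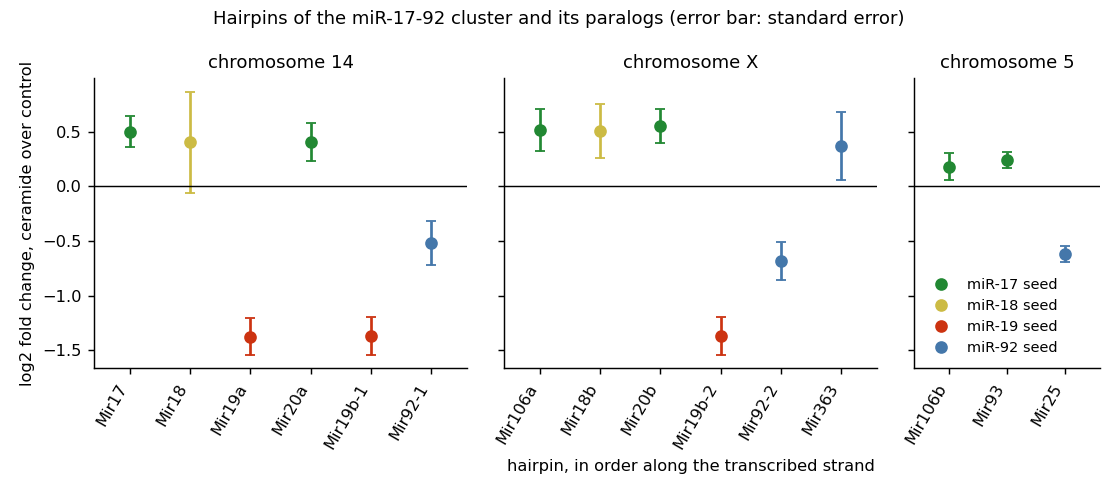
Log2 fold change (Cer over control, with standard errors from edgeR's fit) of the 15 hairpins of the cluster on chromosome 14 and its paralogs on chromosomes X and 5, in order along the transcribed strand and coloured by seed family. The miR-19 points lie at -1.38 to -1.37, below the miR-92 family at -0.69 to 0.37 and the miR-17 and miR-18 families at 0.18 to 0.55.

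The rows most like miR-19 over the libraries were sought by Pearson's r of log2 CPM with the mean of Mir19a and Mir19b-1. This r is a description over 6 libraries that share the split by condition, so any row with a clear difference between conditions scores high. Between Mir19a and Mir19b-1 r was 0.994, and 52 of the 415 other rows had an r over 0.9. The highest was 0.996, for Mir146, the hairpin of miR-146a, a miRNA that dampens NF-kappaB signalling. Mir146 stood at 470, 480 and 471 CPM in control and 329, 294 and 277 CPM in Cer, with Cer replicate 1 again highest among the Cer libraries. The next were Mir344d-3, Mir344d-2, Gm23490 and Gm23962, each with r = 0.993, near-identical rows of mir-344 hairpins. Mir344d-1, a further such row, had the same rounded r and came next after the 5 rows named by the rule. Mir344d-3 was at 697, 656 and 670 CPM in control and 435, 382 and 382 CPM in Cer. The log2 fold changes of these 5 rows, -0.77 to -0.66, were smaller in size than those of miR-19, which the choice of the members had fixed.

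**Figure D5:**
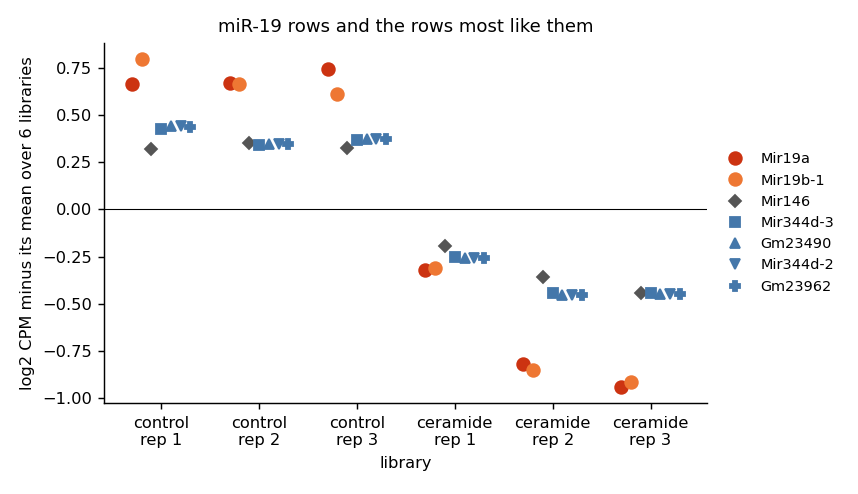
Log2 CPM minus its mean over the 6 libraries for Mir19a, Mir19b-1 and the 5 rows with the highest r, by library. All rows are above 0 in control and below 0 in Cer, with Cer replicate 1 nearest to 0 among the Cer libraries. The miR-19 points lie farther from 0 than the others in every library, which the choice of the members favours.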

How the data were processed

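Small RNA of exosomes was sequenced in 3 control and 3 ceramide libraries (QIAseq miRNA kit). The authors trimmed reads with cutadapt 1.15, aligned them to GRCm38 with STAR 2.5.3a, assigned them to miRNA genes of GENCODE and deposited raw counts for every gene and library. The GENCODE release, use of strand, multiple alignments and molecular identifiers are not given in the sources used here. Names came from GENCODE M21 (1894 of 1973 rows matched, among them all 3 members; Mir124-2 of the neuronal list was matched to Mir124a-2 by its RefSeq synonym) and sequences from RefSeq. Both arms of a hairpin share a row.

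Counts were tested with edgeR 4.0.16 (quasi-likelihood test, TMM, filterByExpr, condition as the only term, Benjamini-Hochberg adjustment) in R 4.3.3, and log2 CPM for pairs and correlations had a prior count of 2. The procedure was tested on simulated data. DESeq2 1.42.0 and limma-voom (limma 3.58.1) were alternatives, with other scalings, no filter, a replicate block, lane as a term, merged near-identical rows (within 5%) and each library left out. Named rows were the members, 12 cluster rows and the 5 highest r. Members and lists were chosen with earlier results of these data known. Libraries of a group differed well beyond counting noise. The numbers are not stated to mark shared experiments. Deviations from group means correlated at 0.591, 0.426 and 0.752 within numbers and at -0.593 to 0.105 between unlike numbers. The libraries were therefore treated as paired for the block. Both libraries of replicate 1 also carry the same lane number, so pairing and lane cannot be told apart for them.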

Additional observations from a re-analysis of the deposited data

How the results depend on the processing

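The log2 fold changes of the miR-19 rows were below 0 in all 15 alternatives. They ranged from -1.59 to -1.26 for Mir19a and Mir19b-1 and from -1.60 to -1.26 for Mir19b-2 when each library was left out, and moved by more than the replicate SD only with sequencing lane as a term, to -0.98 for Mir19a, -1.10 for Mir19b-1 and -1.11 for Mir19b-2. That fit rests on the pair in lane 1. With the replicate block they were -1.41, -1.39 and -1.39. The ratio to Mir17 and Mir20a became -1.65 with all miR-17 seed rows of the clusters as denominator. The difference in the share of counts became -0.1495 percentage points with both Mir19b rows summed, from -0.0907, since the second row repeats the first.

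Over all rows 48 were called, 13 higher and 35 lower. The replicate block gave 87 (38 higher), lane as a term 29 (8 higher, 21 lower) and no filter 5 higher. With DESeq2's size factors in edgeR 21 rows were higher against 26 lower, with upper-quartile factors 23 against 28, and with library size alone 4 against 42. Leaving out each library gave 28 to 55, with 3 to 14 higher and 25 to 41 lower. Without control replicate 1 the count was 28 (3 higher), and without ceramide replicate 2 there were 7 higher.

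Of the 12 other cluster rows, 2 were called lower. The number was 0 with DESeq2's size factors in edgeR and with upper-quartile factors, 1 with no filter and with DESeq2, and 0 to 1 when each library was left out. With lane as a term it was again 2, but Mir92-1 (-0.90) was called in place of Mir25 (-0.59). None was called higher, against 1 with each of those 2 scalings and 0 to 2 without a library. Values with the opposite sign were -0.32 for Mir18, -0.73 for Mir363 and -0.09 for Mir106b with lane as a term, and -0.23 for Mir18 without ceramide replicate 3 (range without a library -0.23 to 0.77). The block changed no call of a miR-19 or other cluster row. It put 7 of the 12 other cluster rows past the p threshold, against 3 without it. Mir17, Mir20a, Mir20b and Mir93 (above 0) and Mir92-1 (-0.55, edgeR, adjusted p = 0.0119) passed it while short of the size threshold. The cause of these changes was not tested. Depth limits the rarest cluster rows, Mir18b and Mir363, with 6 to 42 counts per library.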

Other observations

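Rows that share a mature sequence did not all share their counts. Of 37 pairs of rows with an identical RefSeq mature sequence and at least 100 counts in total in each row, 17 differed by at most 5% in every library, as Mir19b-1 and Mir19b-2 did. In 9 pairs the totals differed by more than 1.5 times. The most unequal pair was Mir92-1 and Mir92-2, which flank the miR-19b hairpins in their clusters and both encode miR-92a-3p. Their totals over the 6 libraries were 94368 and 3826, a factor of 24.7, so the counts of miR-92a were not repeated on both rows in the way those of miR-19b were.

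Counts on the hairpins of Mir17hg, which lie on 1 primary RNA, differed widely. How evenly different sequences are counted was not tested, nor was the cause of these differences. In control the highest mean, that of Mir92-1, was 23.4 times that of Mir19a, the lowest, and in Cer the highest, that of Mir20a, was 56.3 times that of Mir19a.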
